A study of Saccharomyces cerevisiae with 6 samples.

Results

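AWRI796 is an enological strain of the budding yeast Saccharomyces cerevisiae. It was grown in MS300, a synthetic must that imitates that of white wine, in 1 fermentation without SO2 and 1 with 25 mg/l of SO2, the preservative added by winemakers, and both were sampled at a CO2 production of 6 g/l, which the labels call mid exponential phase. Cells were pregrown in rich medium (YPD) and fermented in bioreactors at a constant temperature. Total RNA, depleted of ribosomal RNA, was made into SOLiD 4 whole transcriptome libraries, and each culture gave 1 library. The genes compared are those with a value in both libraries whose deposited RPKM averaged 5 or more, 5159 of the 6603 genes read. A further 1133 genes lay under that minimum and 311 had no value in AWRI796.

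The other libraries of the table come from the same medium and time point: VL3, an enological strain, without SO2 and with 25 mg/l of SO2, and EC1118, an enological strain, and R008, a vineyard strain described as wild type, each with 25 mg/l of SO2. They serve here as a scale for the levels in AWRI796. All levels below are scaled RPKM, the deposited RPKM (reads per kilobase of gene and per a fixed number of mapped reads) divided by a factor per library. All changes are differences of log2(scaled RPKM + 1), with SO2 minus without, and folds stand on that scale, which understates the change of genes with low levels. With 1 library per culture no difference has a replicate check and no test was possible, so every change is a size in these libraries, which cannot be told apart from a difference between any 2 fermentations or library preparations. The depth of the libraries is unknown.

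Sulfite enters yeast cells by diffusion, binds acetaldehyde and other carbonyl compounds, and reacts with thiamine. The plasma membrane pump Ssu1 exports it, under the transcription factor Fzf1, and sulfite is also the intermediate through which cells reduce sulfate for methionine and cysteine. Yeast growing on sugar devotes much of its transcription to ribosomes, and when growth slows it turns these genes down and turns up genes for reserve carbohydrates, protein protection and respiration. Ribosomal protein genes and stress genes are therefore read here as marks of the growth state of each culture.

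In AWRI796, 402 of the 5159 genes stood higher by 2-fold or more under SO2 (7.79%) and 319 stood lower by as much (6.18%). The middle 50% of changes ran from -0.38 to 0.41, the lowest 5% lay under -1.10 and the highest 5% above 1.29. In VL3, given beside it, 151 of 5042 genes (2.99%) were higher by 2-fold or more and 124 (2.46%) lower, and whether the strains differ in this was not tested. Cytosolic ribosomal protein genes made up 29.9% of the higher genes in AWRI796, against 2.62% of all genes compared. Genes described as of unknown function made up 29.2% of the lower genes, 9.20% of the higher genes and 15.6% of all genes compared.

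**Figure D1:**
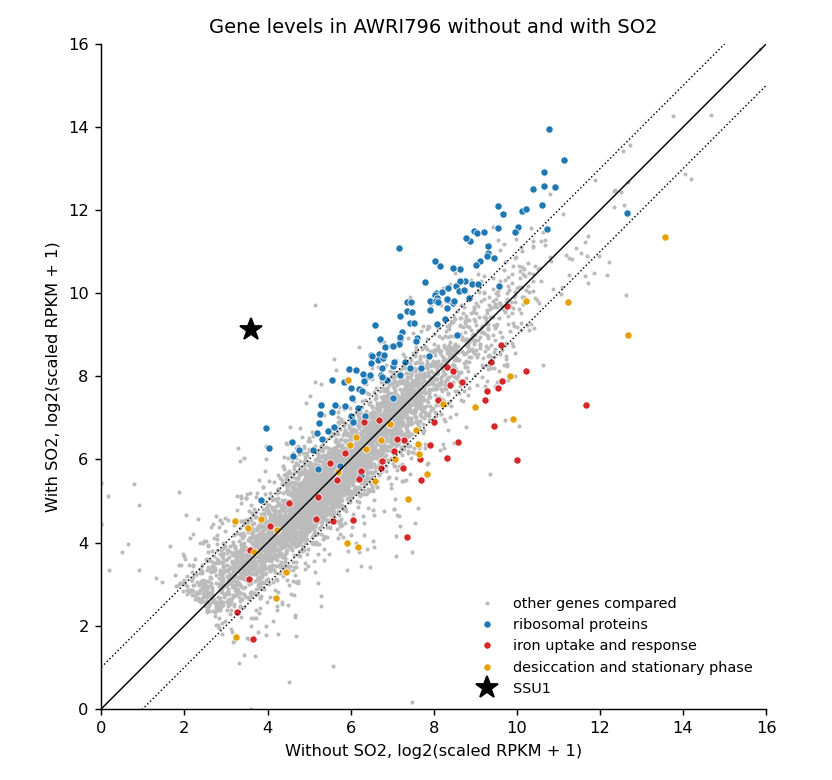
Each point is a gene in AWRI796, with its level without SO2 on the x axis and with SO2 on the y axis, both as log2(scaled RPKM + 1); the solid line marks equal levels and the dotted lines 2-fold. Ribosomal protein genes (blue) lie above the upper dotted line in 120 of 135 cases, iron genes (red) and stationary phase genes (orange) lie mostly below the solid line, and SSU1 (star) went from 11.1 to 551.

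SSU1, the sulfite pump gene (YPL092W, chr16:373793-375169, R64), was the gene with the largest increase that has no near-identical copy. It stood at 11.1 in the culture without SO2 and at 551 in the treated one, 45.7-fold higher. The other strains stood at 713 in VL3 with SO2, 817 in VL3 without SO2, 942 in EC1118 and 2974 in R008. The AWRI796 culture without SO2 was thus the only one of the 6 with SSU1 under 100, and with SO2 AWRI796 was still below the other 4 libraries. FZF1, the activator of SSU1, stood at 13 and 13.4 in AWRI796 and between 10.3 and 17.7 in the other 4 libraries.

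Sulfate assimilation, the route from sulfate through sulfite to sulfide, was moderately higher with SO2. Of 8 genes compared 2 were at least 2-fold higher and none lower, with a median change of 0.55 beside a median near 0 (-0.0042) over all 5159 genes. The list took 0.504% of the summed scaled RPKM without SO2 and 0.813% with SO2, and 0.731% to 0.877% in the other libraries. Only the library without SO2 thus lay outside that range, and 5 of the 8 genes were lowest of the 6 libraries there. MET14, adenylylsulfate kinase, went from 1047 to 2889 (2.76-fold). MET22, the phosphatase that clears a by-product of the pathway, went from 593 to 1361 (2.29-fold). The sulfite reductase genes MET5 and MET10 were 1.58-fold and 1.40-fold higher, and the sulfate permease gene SUL2 went from 266 to 214.

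Downstream, 6 of 23 genes of methionine, cysteine and S-adenosylmethionine were at least 2-fold higher and 2 lower (median 0.47). MET6, methionine synthase, went from 1003 to 2544 (2.54-fold), and HOM3, HOM2 and HOM6, which lead from aspartate to homoserine, were 1.95-fold, 2.00-fold and 1.86-fold higher. MET2, homoserine acetyltransferase, went the other way, from 333 to 129 (2.58-fold lower), and so did YCT1, a cysteine transporter gene, from 418 to 169. The methionine permease gene MUP1 was 1.74-fold lower. The 6 regulator genes of the pathway, MET4, MET28, MET31, MET32, CBF1 and MET30, all lay between -0.56 and -0.07, and none passed 2-fold. In VL3 the medians of these lists were -0.04 for assimilation and 0.06 for the methionine list.

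Sulfite also meets the cell at acetaldehyde, which it binds. Of 19 genes between pyruvate, ethanol and acetate, 3 passed 2-fold upward and 6 downward (median -0.64). The pyruvate decarboxylase genes PDC1 and PDC5 were higher, PDC1 from 319 to 785 (2.45-fold) and PDC5 from 185 to 357 (1.93-fold), while the minor gene PDC6 went from 36.4 to 7.14. Of the aldehyde dehydrogenase genes, ALD6, of the main cytosolic enzyme that makes acetate, went from 830 to 311 (2.66-fold lower). ALD4 of mitochondria went from 79.3 to 17.3 (4.39-fold lower) and ALD3 from 1057 to 111 (9.44-fold lower). ADH1, the main alcohol dehydrogenase gene, went from 3326 to 1907 (1.74-fold lower), and BDH1, butanediol dehydrogenase, from 880 to 239 (3.66-fold lower). The thiamine and pyridoxine list had 1 gene at least 2-fold higher and 3 lower of 19. The higher one was PHO3, a thiamine-repressed phosphatase gene, from 72.6 to 418. The lower ones were THI73, a transporter gene, from 154 to 75.2 and the near-identical pair SNO2 and SNO3, whose single values are uncertain. THI4, of thiamine synthesis, stood at 2426 and 1378, under 2-fold. The list median of 0.07 became -0.05 with quantile normalization.

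Genes of the cytosolic ribosome made up 120 of the 402 higher genes. Of 79 genes of the large subunit 71 were at least 2-fold higher and none lower (median 1.67), and of 56 genes of the small subunit 49 were higher and none lower (median 1.68), against 7.79% of all genes. Together they took 5.81% of the summed scaled RPKM without SO2 and 17.5% with SO2. In the other 4 libraries they took between 7.66% and 10.6%, so that the AWRI796 libraries lay at opposite ends of the 6. A gene with no value in a library adds nothing to its share there, as with RPS6B in R008. A culture is measured as a whole, so a larger part of the cells in one state and more RNA of these genes per cell cannot be told apart. Of 130 ribosomal protein genes with a value in all libraries, 85 were lowest of the 6 in AWRI796 without SO2 and 113 were highest of the 6 in AWRI796 with SO2, where these places went to 20.5% and 18.4% of all genes.

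Single genes showed the same. RPL9A went from 142 to 2179 (15.3-fold), while its other levels lay between 310 in R008 and 567 in VL3 with SO2. RPL30 went from 95.3 to 604 (6.28-fold) and RPL28 from 817 to 3864 (4.72-fold). In the small subunit RPS12 went from 441 to 2568 (5.81-fold), RPS26B from 163 to 880 (5.36-fold) and RPS3, a protein of the mRNA entry channel, from 353 to 1568 (4.44-fold). ASC1, which binds the head of the small subunit, went from 503 to 2892 (5.74-fold) and in VL3 from 2733 to 1332. Of the compared genes 38 have a near-identical copy, so that reads may have been split between them. RPL41A at 1753 and 15790 and RPL41B at 6456 and 3909 are such a pair and are uncertain singly. Without the copies the medians were 1.61 and 1.67. In VL3 the medians were 0.33 and 0.35, with 10 of 137 genes at least 2-fold higher and 2, both of the small subunit, lower.

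Rap1 is the factor that binds most ribosomal protein promoters. A letter match to part of its site, ACCCNNACA on either strand, was looked for in the 250 bases before and 50 after the start codon of 5041 genes in the R64 reference, whose sequence may differ from that of AWRI796. It occurred in 8 of 79 large subunit and 4 of 56 small subunit promoters, against 2.88% of all. In 500 bases before the start, a window chosen after the values had been seen, it occurred in 36 and 18 of them, against 5.61% of all. The gene with the largest change and a match in each list is shown to give the place of the match, in capitals; both are read 5′ to 3′ on the minus strand, ending at the base before the start codon (R64; RPS1A at chr12:1018909-1019158, RPL40B at chr11:618751-619000).
RPS1A: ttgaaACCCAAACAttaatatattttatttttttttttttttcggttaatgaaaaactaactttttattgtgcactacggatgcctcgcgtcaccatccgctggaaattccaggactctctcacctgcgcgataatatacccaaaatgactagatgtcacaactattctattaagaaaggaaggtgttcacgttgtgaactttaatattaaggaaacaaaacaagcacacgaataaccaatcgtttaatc
RPL40B: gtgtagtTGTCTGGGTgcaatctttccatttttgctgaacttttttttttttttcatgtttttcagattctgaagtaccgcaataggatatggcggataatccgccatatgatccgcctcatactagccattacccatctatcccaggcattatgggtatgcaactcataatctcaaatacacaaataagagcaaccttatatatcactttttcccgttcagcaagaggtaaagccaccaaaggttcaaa
In RPS1A the match begins 245 bases before the start codon, and the gene went from 1343 to 5803. In RPL40B it lies on the other strand and begins 243 bases before the start, and the gene went from 112 to 418 (change 1.89). A match describes letters only and is no evidence of binding.

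The genes that build ribosomes had a smaller median change than those of the ribosome itself. Of 149 ribosome biogenesis genes 16 were at least 2-fold higher and none lower (10.7%, median 0.33), and 121 lay above 0. NOP1, the rRNA methyltransferase, went from 6.46 to 21.3, NOP58 from 26.1 to 69.2 and NOP56 from 233 to 597, all parts of the same small nucleolar particle, and NSR1 from 103 to 260. Their median log2 level was 4.82 without SO2 and 5.20 with SO2, inside or just under the 4.89 to 5.23 of the other libraries. Of 23 genes of RNA polymerases I and III none was at least 2-fold higher, and RRN3, the initiation factor of polymerase I, went from 186 to 70.5. The PAC letters GATGAG and the RRPE letters AAAATTTT, which mark ribosome biogenesis promoters, occurred in 87.2% and 74.5% of these promoters. Among all promoters they occurred in 20.3% and 9.92%. RRPE occurred in 16.3% of promoters of genes at least 2-fold higher and in 3.30% of those of genes at least 2-fold lower. PAC did not follow it, with 15.6% of the higher, 18.8% of the lower and 20.3% of all promoters.

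Other parts of protein synthesis were higher as well. Among 40 translation factors 9 were at least 2-fold higher and none lower (median 0.65), with YEF3, elongation factor 3, going from 1104 to 2230, PRT1 of initiation factor 3 from 132 to 274 and ANB1, a hypoxic form of eIF5A, from 562 to 1253. All 19 aminoacyl-tRNA synthetases lay above 0 and 6 passed 2-fold (median 0.80), led by DED81 for asparagine at 2.52-fold and THS1 for threonine at 2.38-fold. The ribosome-bound chaperones SSB1 and SSB2 were 4.08-fold and 3.88-fold higher but share reads, and their partner ZUO1 went from 13.5 to 30.4. Genes of entry and folding in the endoplasmic reticulum had a median of 0.63. Of these 27 genes 3 passed 2-fold, all higher (11.1%, near the 7.79% of all genes), among them EUG1, a disulfide isomerase, at 2.52-fold. HAC1, the activator of the unfolded protein response, went from 1111 to 2064, and in VL3 from 4464 to 1974. Mitochondrial ribosomal protein genes had a median of 0.34, beside 0.36 in VL3. Of 76 genes in this list 5 were at least 2-fold higher (6.58%, under the 7.79% of all genes) and 1, MRP8, was lower, from 697 to 293. MRP8 was listed by its name, and whether its product is part of the mitochondrial ribosome was not checked.

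**Figure D2:**
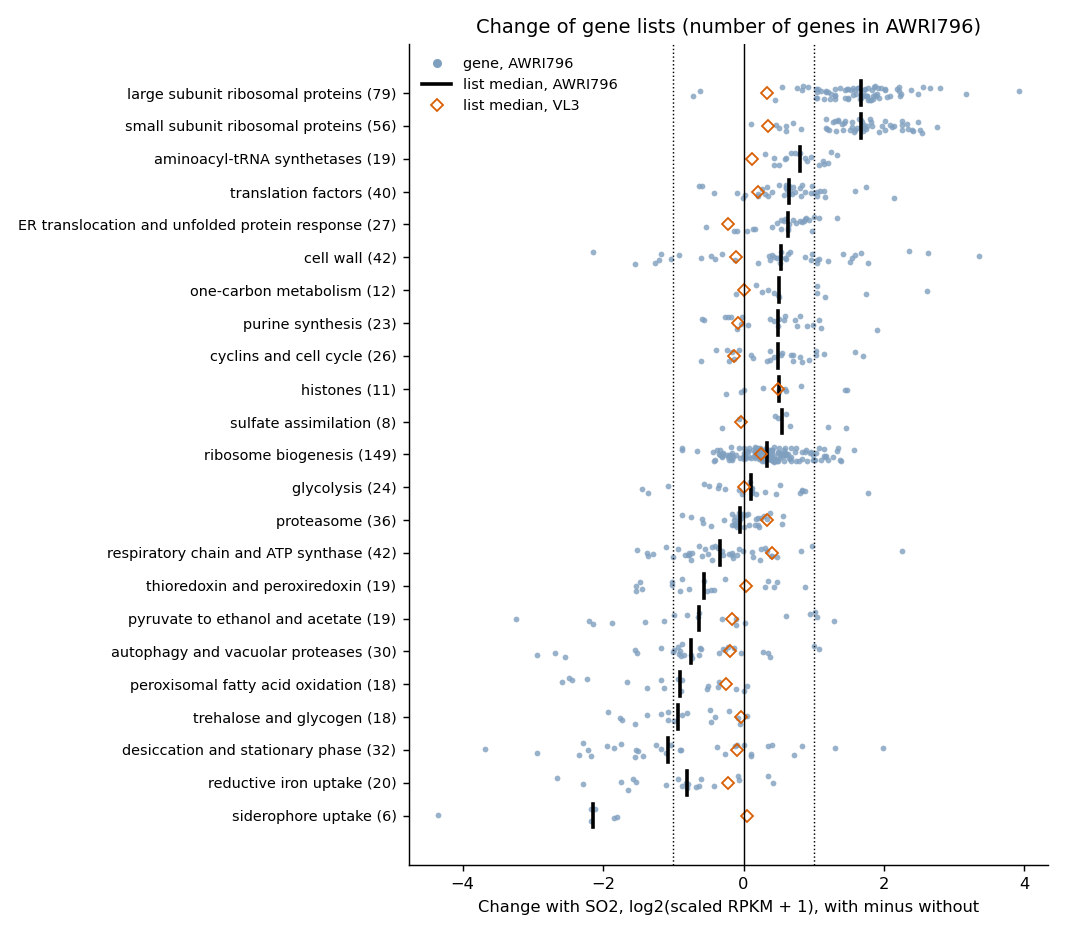
Change with SO2 of the genes of 23 lists in AWRI796 (points, log2 scale), with the list median in AWRI796 (bar) and in VL3 (diamond); dotted lines mark 2-fold. Ribosomal protein genes lie at medians of 1.67 and 1.68 and siderophore uptake at -2.14, while the VL3 medians of all lists shown lie between -0.25 and 0.49.

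Amino acid and nucleotide synthesis followed at a smaller size. Of 51 genes for branched-chain, histidine, aromatic, arginine and lysine synthesis, 11 were at least 2-fold higher and none lower (median 0.45). LYS9, of lysine synthesis, went from 685 to 3078 (4.49-fold), LEU9 from 23.2 to 83.9, ILV3 from 165 to 485 and ARO4, the entry step of aromatic synthesis, from 207 to 546. GCN4, the activator of these pathways, went from 393 to 1206 (3.06-fold) at the level of its mRNA; Gcn4 itself is set mainly by translation, which was not measured. The Gcn4 letters TGACTC occurred in 7 of 12 branched-chain, 11 of 21 histidine and aromatic and 9 of 18 arginine and lysine promoters, and in 8.55% of all. They occurred in 10.2% of promoters of all genes at least 2-fold higher.

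In purine synthesis 3 of 23 genes were at least 2-fold higher (median 0.49), ADE17 from 298 to 1118, ADE5,7 at 2.14-fold and ADE4, the entry step, at 2.10-fold. ADE16, the paralog of ADE17, went from 711 to 472. One-carbon metabolism, which feeds purines and methionine, had 5 of 12 higher (median 0.50), led by SHM2, cytosolic serine hydroxymethyltransferase, from 9.77 to 64.9 (6.12-fold), and GCV2 of glycine cleavage from 9.35 to 33.9. In pyrimidine synthesis FUR4, the uracil permease, was 2.36-fold higher and URA10 2.23-fold lower. BIO2, biotin synthase, went from 38.3 to 223 (5.69-fold), above the 97.4 to 195 of the other libraries.

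Among genes of the dividing cell, cyclins and histones had medians near those of amino acid synthesis and DNA replication genes did not. Of 26 cyclin and cell cycle genes compared 5 were at least 2-fold higher and none lower (median 0.49), among them the G1 cyclin genes CLN2 from 2.96 to 11.8 and CLN1 from 2.72 to 7.2, while SIC1, an inhibitor of cyclin-dependent kinase, went from 19.0 to 12.1. Of 50 DNA replication genes 4 were higher (8.0%, beside 7.79% of all genes) and none lower, with a median of 0.18: RNR4 from 337 to 1202 and RNR2 from 214 to 588, both of the small subunit of ribonucleotide reductase, RNR3 and SLD5. Histones had a median of 0.51, with HTB2 at 2.78-fold and HTA2 at 2.71-fold, beside a median of 0.49 in VL3. The proteasome, given as a contrast, had 0 of 36 genes past 2-fold in either direction, with changes from -0.87 to 0.56.

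The cell wall list split. Of 42 genes 13 passed 2-fold upward and 6 downward (median 0.53). Higher were CWP2, a mannoprotein of the wall, from 2.63 to 36.3 (10.3-fold), the chitin-glucan crosslinking enzyme genes UTR2 from 9.10 to 61.6 and CRH1 from 23.3 to 69.8, SCW10 from 14.6 to 79.1, CCW12 from 478 to 1276 and GAS1, a glucan elongase, from 226 to 480. Lower were GSC2, the alternative glucan synthase subunit, from 451 to 187, PST1 from 1263 to 558, PIR3 from 17.4 to 5.36, SPI1 from 133 to 63.9 and the protease gene YPS6 from 68.9 to 14.8. FKS3 was 2.32-fold lower.

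Stress and reserve genes formed the opposite side. Of 32 genes of desiccation and stationary phase 17 were at least 2-fold lower and 2 higher (median -1.08), against 6.18% and 7.79% of all genes. SIP18, a hydrophilin made under water loss, went from 6576 to 513 (12.8-fold lower). HSP12, a membrane-protecting protein, went from 12029 to 2597 (4.63-fold lower), PAI3, an inhibitor of vacuolar proteinase A, from 960 to 125 and DDR2 from 71.3 to 13.9. In the other 4 libraries SIP18 stood between 341 and 1755 and HSP12 between 407 and 4724, so both AWRI796 levels with SO2 lay inside that range and both levels without SO2 above it. The exceptions were GRE1, a relative of SIP18, from 60.1 to 240 (3.95-fold higher; in VL3 29.0 to 140) and FMP45 from 8.35 to 21.9. SIP18 lies between PAI3 and YMR175W-A on chromosome 13 (610159 to 611508), and all 3 were at least 2-fold lower.

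Among heat shock genes the disaggregase HSP104 went from 713 to 216 (3.30-fold lower) and the small heat shock protein gene HSP26 from 6361 to 995 (6.39-fold lower), while HSP42 and HSP30 lay at 0.26 and 0.22. In all 5 of 10 were at least 2-fold lower and 1 was higher, the mitochondrial chaperonin gene HSP10, from 56.2 to 148. The list median was -1.10, but HSP32 and HSP33 share reads, and without such copies the median was -0.30. The HSP70 and HSP90 list went both ways, 5 higher and 3 lower of 26: HSC82, the constitutive HSP90, went from 288 to 839, and SSE2 and SSA3, both induced by heat, were 2.39-fold and 2.16-fold lower. SSA2 at 31.6 and 184 and SSA1 at 1373 and 572 are near-identical and uncertain.

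Storage carbohydrate genes were lower. Of 18 genes 8 were at least 2-fold lower and none higher, and 17 lay below 0 (median -0.93). GLC3, the glycogen branching enzyme, went from 226 to 58.5, PGM2, phosphoglucomutase, from 4603 to 1386, GPH1, glycogen phosphorylase, from 3704 to 1431, and GSY2, the main glycogen synthase, from 287 to 135. TPS1, trehalose phosphate synthase, was 1.76-fold lower. Both synthesis and breakdown genes stood lower. Their share of summed scaled RPKM was 1.37% in the untreated culture and 0.528% in the treated one, while the other libraries spanned 0.971% to 1.31%. By median log2 level they stood at 7.82 and 6.91, where the other libraries spanned 7.23 to 7.97, so the untreated culture lay inside that range.

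**Figure D3:**
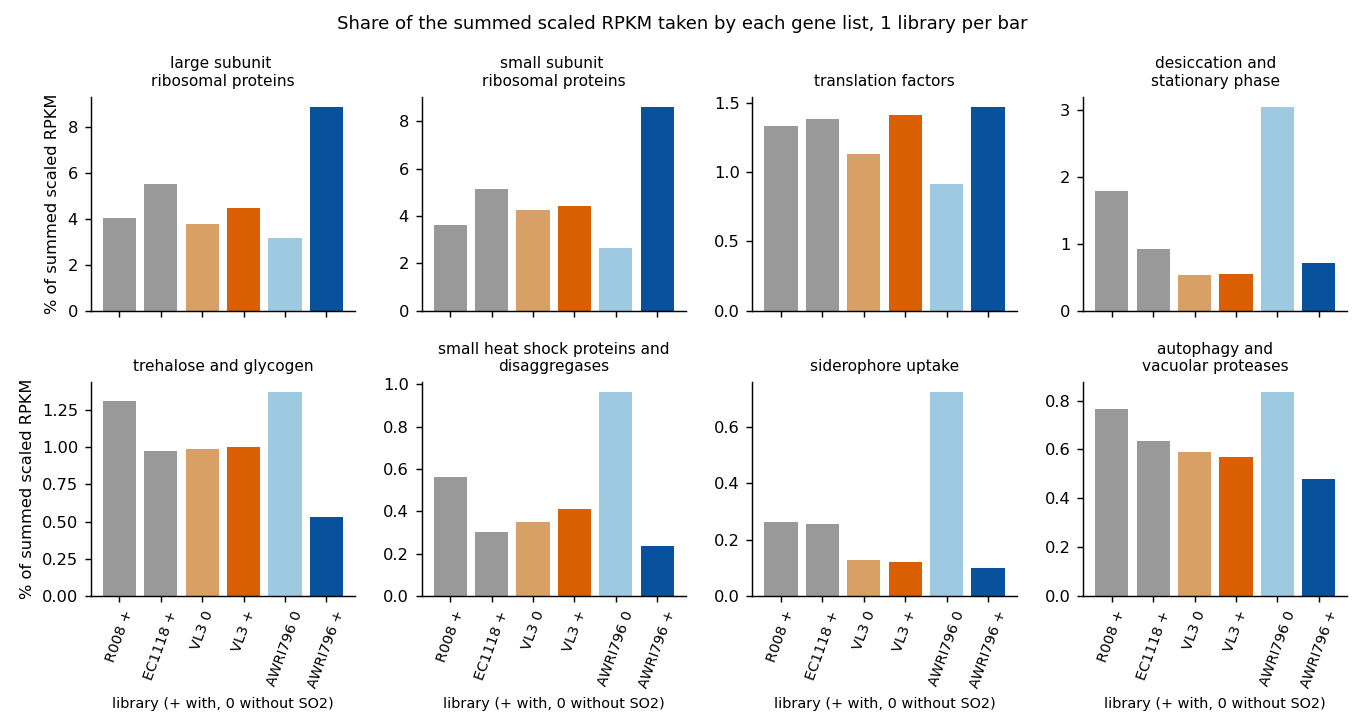
Share of the summed scaled RPKM taken by 8 gene lists in each of the 6 libraries (bars, percent, 1 library each). ARN2 and ENB1, without a value in VL3, add nothing to its siderophore bars. A share rests mostly on the genes of highest level in a list, and medians can differ from it. The median log2 level of the small heat shock list was 7.96 without SO2 and 7.85 with SO2, inside the 7.69 to 8.17 of the other libraries. That of trehalose and glycogen genes in AWRI796 without SO2 was 7.82, below 7.97 in R008. Large subunit ribosomal proteins go from 3.14% to 8.86% in AWRI796 and stationary phase genes from 3.04% to 0.712%, and for 7 of the 8 lists the AWRI796 library without SO2 (pale blue) and that with SO2 (dark blue) are the highest and lowest bars or the reverse; for stationary phase genes the library with SO2 lies among the others.

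Degradation and fat oxidation went with them. Of 30 genes of autophagy and vacuolar proteases 7 were at least 2-fold lower and 2 higher (median -0.75), and 18 of the 30 were highest of all 6 libraries in AWRI796 without SO2. ATG8, the ubiquitin-like protein of the autophagosome, went from 570 to 309, ATG34 from 94.2 to 13.9 and the vacuolar proteases PEP4 and PRB1 from 846 to 440 and from 146 to 72.4. Of 18 peroxisomal fatty acid oxidation genes 8 were at least 2-fold lower and none higher (median -0.91), among them the enzymes of beta-oxidation POX1 from 91.2 to 15.4, FOX2 from 59.7 to 9.11 and POT1 from 138 to 24.4. In VL3 FOX2 and POT1 had changes of -1.25 and -1.18, and the list median was -0.25. PEX18, which imports a thiolase into peroxisomes, went from 75.6 to 9.76.

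The stress response element CCCCT, read by Msn2 and Msn4, was looked for in the same 5041 promoters. It occurred in 38.0% of promoters of genes at least 2-fold lower, 22.1% of all and 17.3% of those at least 2-fold higher. In the lists it occurred in 16 of 32 desiccation, 10 of 18 trehalose and glycogen and 6 of 10 heat shock promoters. By mRNA, MSN2 and MSN4 stood at 8.44 and 20.2 without SO2 and at 11.8 and 41.3 with SO2. Both were higher by under 2-fold, and the activity of their proteins was not measured. The promoters of the genes with the largest change and a match in the heat shock and desiccation lists show its place in capitals, here as AGGGG since it lies on the other strand (R64, minus strand; HSP31 at chr4:1502161-1502410, PAI3 at chr13:610366-610615).
HSP31: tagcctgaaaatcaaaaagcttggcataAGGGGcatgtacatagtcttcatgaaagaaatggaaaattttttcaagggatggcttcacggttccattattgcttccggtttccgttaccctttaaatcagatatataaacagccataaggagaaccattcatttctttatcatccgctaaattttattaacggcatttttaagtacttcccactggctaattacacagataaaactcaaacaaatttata
PAI3: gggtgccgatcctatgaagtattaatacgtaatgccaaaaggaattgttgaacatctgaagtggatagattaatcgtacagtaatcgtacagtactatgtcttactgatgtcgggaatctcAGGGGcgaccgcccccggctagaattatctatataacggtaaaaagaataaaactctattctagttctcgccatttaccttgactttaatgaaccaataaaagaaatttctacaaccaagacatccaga
The match begins 222 bases before the start codon in HSP31, a chaperone and glyoxalase gene that went from 231 to 59.1, and 129 bases before it in PAI3.

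Antioxidant genes were lower in part. Of 19 thioredoxin and peroxiredoxin genes 6 were at least 2-fold lower and none higher (median -0.57), and of 19 glutathione and glutaredoxin genes 5 were lower and 1 higher (median -0.51). GRX1, a glutaredoxin, went from 1571 to 311 (5.05-fold), PRX1, the mitochondrial peroxiredoxin, from 757 to 279 and SOD1, superoxide dismutase, from 959 to 426. GLR1, glutathione reductase, went from 216 to 359, TRX1 from 1649 to 2301 and the glutaredoxin gene GRX8 from 12.9 to 44.7. CTT1, the cytosolic catalase, stood at 105 and 87.8. SOD1 and CTT1 belong to the list of catalases and superoxide dismutases, where 1 gene was at least 2-fold higher and 1 lower of 6 (median -0.22). The higher one was CCP1, from 24.8 to 75.9 (2.98-fold). The Yap1 letters TTACTAA were in 3 of 19 thioredoxin and peroxiredoxin promoters, 7 of 19 glutathione and glutaredoxin promoters and 7.93% of all. YAP1 itself was 1.44-fold lower.

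Iron genes were lower as a group. Of 46 genes of uptake, regulation and sparing of iron 20 were at least 2-fold lower and none higher (median -0.84). Yeast takes up iron by reduction at the surface and oxidation by Fet3 with the permease Ftr1, or as siderophores through Arn transporters, and Aft1 and Aft2 switch these genes on when iron is short. FET3 went from 702 to 110 (6.32-fold) and FTR1 from 320 to 65.1 (4.85-fold). ATX1 and CCC2, which carry copper to Fet3, went from 795 to 235 and from 240 to 80.1, and the reductase gene FRE1 from 66.1 to 22.3. FET4, a low affinity transporter outside the Fet3 system, lay close to equal, as the plot of iron genes shows.

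All 6 siderophore genes compared were at least 2-fold lower (median -2.14). ARN2 went from 3254 to 159 (20.4-fold) and had no value in VL3, SIT1 from 1197 to 277, ARN1 from 752 to 209 and ENB1, for enterobactin, from 205 to 44.5. The wall mannoproteins that hold siderophores, FIT2 and FIT3, were 3.47-fold and 4.51-fold lower, and with YOR381W-A and FRE5 they form a run of 4 lower neighbours on chromosome 15. Of the genes that save or recycle iron, TIS11, which degrades mRNAs of iron-using proteins, went from 621 to 198, HMX1, heme oxygenase, from 11.5 to 2.22 and LSO1 (YJR005C-A), a small protein gene induced by iron shortage, from 162 to 16.6. AFT1 went from 8.68 to 4.06 and CTH1, paralog of TIS11, from 22 to 29.9.

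Against the other strains both AWRI796 cultures lay outside. Iron genes took 1.84% of the summed scaled RPKM without SO2 and 0.595% with SO2, above and below the 0.774% to 0.949% of the other 4 libraries. ARN2 and ENB1 had no value in VL3, so the VL3 shares (0.774% and 0.775%) leave these genes out. R008 and EC1118, which have values for both, stood at 0.949% and 0.839%. Of 44 iron genes with a value in all libraries 24 were highest of the 6 in AWRI796 without SO2 (54.5%, against 20.8% of all genes) and 14 were lowest of the 6 with SO2 (31.8%, against 17.5%). FET3 lay between 127 and 244 in the other 4 libraries, under its level without SO2 (702) and over that with SO2 (110). In VL3 the changes of FET3, FTR1 and SIT1 were -0.14, -0.83 and -0.63, and those of HMX1, FRE2, LSO1 (YJR005C-A) and CCC2 were 2.15, 2.08, 1.68 and 1.39, the opposite direction. Iron in the must was not among the values used here.

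**Figure D4:**
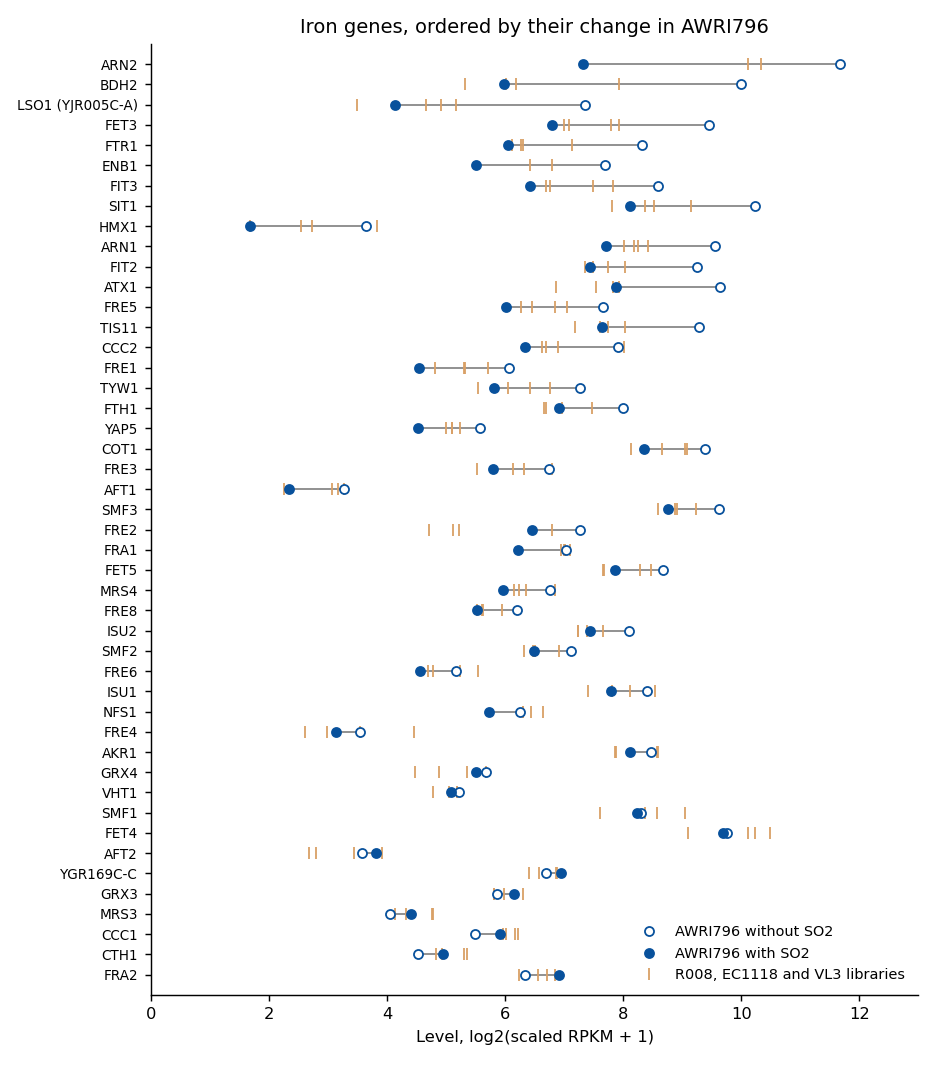
Level of 46 iron genes in AWRI796 without SO2 (open circles) and with SO2 (filled circles) and in the other 4 libraries (ticks), as log2(scaled RPKM + 1), ordered by change. From ARN2 at the top (3254 to 159) to COT1, 20 genes were at least 2-fold lower, and the open circles of FET3, FTR1, SIT1 and ARN1 lie to the right of all ticks.

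The letters TGCACCC, the core read by Aft1 and Aft2, occurred in 4 of 6 siderophore and 7 of 20 reductive uptake promoters, against 1.31% of all, 5.28% of those of genes at least 2-fold lower and 0.765% of those at least 2-fold higher. They share ACCC with the Rap1-like letters, so 1 stretch can count for both. ENB1 has 2 matches, in capitals, 193 and 137 bases before its start codon (R64, minus strand, chr15:21312-21561).
ENB1: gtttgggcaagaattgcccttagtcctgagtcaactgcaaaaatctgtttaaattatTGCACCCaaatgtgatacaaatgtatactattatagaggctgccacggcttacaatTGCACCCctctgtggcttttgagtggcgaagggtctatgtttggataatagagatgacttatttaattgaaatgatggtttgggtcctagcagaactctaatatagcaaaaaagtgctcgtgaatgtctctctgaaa

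In sugar metabolism the isoforms of single steps differed. Glycolysis had a median of 0.11, which was -0.01 with quantile normalization, with 1 gene at least 2-fold higher and 3 lower of 24. HXK2, the hexokinase of rapid growth on glucose, went from 244 to 836 (3.41-fold) and GLK1, glucokinase, from 1290 to 610. ENO2 went from 3784 to 6758 and ENO1 from 18698 to 6886. PYK2, the minor pyruvate kinase, went from 52.9 to 20.1 beside CDC19, the main one, at 5782 and 5510. TDH1, a glyceraldehyde phosphate dehydrogenase gene with the highest level of the glycolytic genes in both libraries, stood at 25929 and 20168. The enolase and pyruvate kinase pairs are among 12 pairs of paralogs chosen after the values were seen. Each pair was labelled as a main form and a form used in slow growth or on other carbon sources. The labels did not follow level in every pair. Without SO2, ENO2, HXK2, SSE1 and NDE1, labelled main, stood below ENO1, GLK1, SSE2 and NDE2. With SO2, ENO2 still stood slightly below ENO1. The common direction of the pairs rests on these labels and is a description only.

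The same contrast held in the pentose phosphate pathway, which makes NADPH. GND1 stood at 6581 and 6599, while its paralog GND2 went from 649 to 49.3 (12.9-fold lower). TKL1 stood at 851 and 887 while TKL2 went from 142 to 24.1, SOL3 went from 393 to 521 while SOL4 went from 17.9 to 2.48, and TAL1 from 955 to 800 while NQM1 went from 620 to 238. ZWF1, the first enzyme, stood at 63.1 and 60.7. PMA1, the proton pump of the plasma membrane, went from 6155 to 4500, and PMA2, its paralog, from 177 to 12.7 (13-fold lower). GDH1, which makes glutamate, went from 1385 to 1605, and GDH3 from 24.4 to 3.61. In VL3 the change of GND2 was -1.82, that of PDC6 -1.62, that of NQM1 -1.28, that of NDE2 -1.08 and that of PMA2 -0.34.

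Respiratory genes lay lower in AWRI796 (median -0.33, 1 higher and 5 lower of 42) and higher in VL3 (median 0.40). HAP5 and HAP2, subunits of the activator of respiration, went from 23.3 to 7.46 and from 42.3 to 16.7, COX13 from 198 to 76.6, and NDE1, an external NADH dehydrogenase, went the other way from 2.14 to 14.1 while NDE2 went from 13 to 4.41. In the glycerol list STL1, the glycerol and proton symporter, went from 0.875 to 29.1 (16-fold) and in VL3 from 1.96 to 28.9, and RHR2 from 42.5 to 101. GPD1, the main enzyme of glycerol synthesis, stood at 148 and 150. Among lipid genes INO1, which makes inositol, went from 34.3 to 234 (6.67-fold). In the other libraries INO1 lay between 217 and 433, above the AWRI796 level without SO2, and in VL3 it went from 433 to 218. CHO2 of phosphatidylcholine synthesis went from 181 to 529 and OLE1, the fatty acid desaturase, from 16829 to 7472. EEB1, an ethyl ester synthase of wine aroma, went from 3372 to 1209. Ergosterol synthesis had a median of -0.08 with 3 of 30 lower, among them ERG3 and ERG6.

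Exporters and permeases went both ways. PDR12, the weak acid pump, went from 50.2 to 109 and its activator WAR1 from 2.95 to 7.61. PDR15 went from 196 to 27.3 (6.97-fold lower), RSB1 from 152 to 43.6 and TPO4, a polyamine exporter, from 850 to 339. DIP5, the permease for glutamate and aspartate, went from 37.8 to 5.59, and in VL3 from 5.67 to 14.6. Of 21 nitrogen catabolite repressed genes 1 was higher and 1 lower (median -0.30; VL3 -0.47). GAP1, the general amino acid permease, stood at 16.7 and 12.9. PHO84, the phosphate transporter, went from 0.130 to 9.11 but overlaps an antisense RNA and is uncertain, and the phosphatases PHO8 and PHO5 went from 8.76 to 76.0 and from 27.3 to 91.6, while PHM8 was 2.26-fold lower.

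Among the 15 largest increases were genes with little known function. YMR244W went from 0.121 to 34.0 and YOL014W from 34.1 to 836, with the other libraries at 0.853 to 48.2 and 30.4 to 155. RTA1, of a family of lipid exporters, went from 0.719 to 41.4, HOP2, a meiotic pairing gene that neighbours RPL24A, from 0.554 to 14.5, PUG1, a protoporphyrin carrier, from 0.416 to 12.6 and YOR385W from 47.1 to 340. The size of the low ones rests on the pseudocount: YMR244W had 7.27 and RTA1 5.66 at 0.1, and 2.93 and 3.02 at 5, while SSU1 had 5.62 and 5.11. Among the 15 largest decreases were COS10 from 46.4 to 1.03, COS12 from 22 to 0.554, YGL262W from 136 to 11.8 and YTP1 from 38.2 to 4.60. COS genes lie near chromosome ends. COS1, at 176 and 0.127, has a near-identical copy and is uncertain.

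By position, of 212 genes under 30 kb from a chromosome end 15.1% passed 2-fold upward and 15.6% downward, against 7.48% and 5.78% of the other 4947. By level, 14.0% of the 1290 genes with a mean above 121 scaled RPKM passed it upward and 7.83% downward. In the lower quartiles of level, from the lowest up, 7.21%, 4.73% and 5.28% passed it upward. Downward they had 6.74%, 4.42% and 5.74%. Ribosomal protein genes were not set apart in these shares.

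Chromosome 1 stood apart. Of its 76 genes compared 0 passed 2-fold upward and 13 downward, with a median change of -0.47 and 57 of 76 (75%) below 0. The medians of the other 15 chromosomes lay between -0.09 and 0.07, and 49.9% of their genes lay below 0. Set against the median of the 4 libraries of other strains, the level of chromosome 1 genes was 0.47 higher (log2) in AWRI796 without SO2 and 0.06 higher with SO2, where the other chromosomes lay between -0.08 and 0.06 and between -0.05 and 0.05. In VL3 the median change of chromosome 1 was -0.06. EC1118 lay 0.36 below the other strains on this chromosome. This was noticed after the values had been seen, and its part in the changes of BDH2 (1024 to 62.3), BDH1, GDH3 and SSA1, which lie there, was not tested. BDH2, BDH1 and GDH3 are neighbours, and their changes of -4.02, -1.87 and -2.46 are larger than the median of the chromosome.

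**Figure D5:**
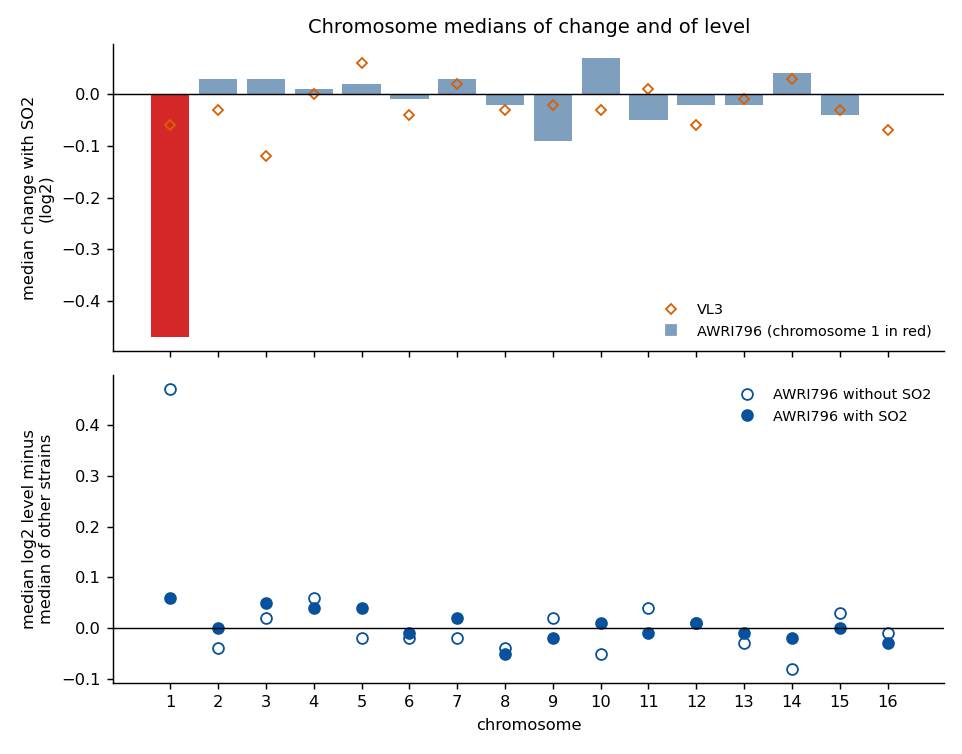
Median change with SO2 of the genes of each chromosome (upper panel, log2, bars AWRI796 and diamonds VL3) and median log2 level in each AWRI796 library minus the median of the libraries of other strains (lower panel). Chromosome 1 lies at -0.47 in the upper panel and at 0.47 without SO2 and 0.06 with SO2 in the lower.

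The AWRI796 libraries were set against the other 4. Of 377 genes that were higher by 2-fold or more and measured in all libraries, the library without SO2 lay below all other strains in 287 (76.1%) and the library with SO2 above all of them in 236 (62.6%), both in 165. Of 298 genes at least 2-fold lower the library without SO2 lay above all other strains in 226 (75.8%) and the library with SO2 below in 157 (52.7%), both in 105. These genes were chosen for a difference between the AWRI796 libraries, which by itself places them outside the others more often, so the shares are a description. Over all 5015 genes with 6 values the library without SO2 was highest of the 6 in 20.8% and lowest in 20.5%, and that with SO2 in 18.4% and 17.5%. Stationary phase genes took 3.04% of the summed scaled RPKM in AWRI796 without SO2, against 0.535% to 1.79% in the other strains. The labels nevertheless give the same phase and CO2 release. The part of growth state in the changes described above was not tested, and with 1 culture each it cannot be told apart from SO2.

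VL3 offered a second comparison of the same kind. Of 4924 genes compared in both strains, 18 were higher by 2-fold or more in both, which is 4.88% of the 369 such genes of AWRI796 and 12.5% of the 144 of VL3. Lower by as much in both were 28, which is 9.72% of the 288 of AWRI796 and 27.2% of the 103 of VL3. Over all 4924 genes, 7.49% were higher and 5.85% lower in AWRI796, and 2.92% were higher and 2.09% lower in VL3. In opposite directions past 2-fold were 12 and 12. The strains' libraries are separate, and no test of the overlap was made.

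The remaining lists are given by their medians. Median changes were -0.63 for copper and zinc, with IZH2 2.11-fold lower, -0.36 for the phosphate regulon, -0.33 for stress regulators, -0.52 for hexose transporters and sensors, with HXT5 3.21-fold lower, and 0.18 for the tricarboxylic acid cycle. They were -0.32 for glyoxylate and gluconeogenesis, 0.11 for hypoxic genes, -0.35 for aroma alcohols and esters and -0.40 for aryl alcohol dehydrogenases. Biotin and NAD stood at -0.08, amino acid permeases at -0.29, exporters at -0.30, catalases and superoxide dismutases at -0.22, pentose phosphate genes at -0.16 and the proton pump list at -0.15. Fatty acid and phospholipid genes stood at 0.46, glycerol genes at 0.00, anaerobic mannoproteins at 0.10, which was -0.14 without near-identical copies (VL3 1.54), and the COS family at -2.76. Mating genes stood at -0.02 and meiosis genes at -0.37, and 23 of 34 and 35 of 51 of their genes lay under the minimum.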

How the data were processed

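The authors deposited 1 table of RPKM values per gene for 6 libraries, 1 per culture, in the units its header gives; the aligner, counting rules, use of strand and genome build were not given in the sources used here. At the best step found, 24.3% to 27.6% of low values were whole to within 0.1, where chance gives 20%, so reads per gene could not be recovered and depth is unknown. The table has 6611 rows. Dropping the 8 rows with 4 duplicated names left 6603 genes, among them 2 whose values stood at a line end.

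Deposited RPKM was divided by a median-of-ratios factor per library (0.882 to 1.155, from 5409 genes above 0 in all libraries). A pseudocount of 1 was added before log2, and genes with a mean deposited RPKM under 5 were left out. With 1 library per group no test was made. A gene was counted as higher or lower at a fold of 2. The scripts were tested on simulated data. Near-identical copies (294 genes) were found with BLAST+ 2.17.0 at 95% identity over 80% of the gene, in the RefSeq copy of R64, from which promoters were read; 5860 of 5869 genes have the same coordinates there. Python 3.11.15, pandas 2.3.3 and NumPy 2.4.6 were used.

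The 61 gene lists were chosen with earlier results of these data known. The genes named are SSU1 and FZF1, the 15 largest increases and 15 largest decreases without copies, up to 6 members of a list with the largest change and those whose role defines it, and paralog pairs; the 12 pairs and chromosome 1 were chosen after their values were seen. Alternatives were other pseudocounts, scalings, filters and folds, leaving out copies, and a longer promoter window.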

Additional observations from a re-analysis of the deposited data

Results flagged for a closer look

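For 9 genes named in a list or among the largest changes, the change in AWRI796 and that in VL3 passed 2-fold in opposite directions. With 1 library per culture the difference between the strains was not tested for any of them. RTA1, of a lipid exporter family, had 4.62 in AWRI796 and -2.22 in VL3. YJR005C-A (LSO1), a small iron-responsive gene, had -3.21 and 1.68, HMX1, heme oxygenase, had -1.96 and 2.15, and CCC2, a copper pump, had -1.57 and 1.39. ASC1, of the small ribosomal subunit, had 2.52 and -1.04. DDR2, a stress gene, had -2.28 and 1.33, and DIP5, an amino acid permease, had -2.56 and 1.23. ICL2, a mitochondrial 2-methylisocitrate lyase, had 1.52 and -1.83, and PCL1, a G1 cyclin, had 1.03 and -1.04. Among all 4924 genes compared in both strains, 24 passed 2-fold in opposite directions. They include list members outside the set above: SPI1, with -1.04 and 1.17, and SSA1, which has a near-identical copy, with -1.26 and 1.19.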

How the results depend on the processing

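No paired analysis was possible because each group has 1 library; for the same reason no library could be left out. With a fold of 1.5 in place of 2, 906 genes were higher and 800 lower with SO2, and with a fold of 3, 158 and 111. Under the other scalings, pseudocounts and filters tried the counts ran from 326 to 472 higher and from 248 to 416 lower. With no scaling factor 352 were higher and 361 lower. Without chromosome 1, an alternative added after seeing the data, they were 402 and 306. Of 549 list medians recomputed, 546 moved by under 1.5-fold, none of a list past 1.5-fold changed sign, and 3 moved: sulfite export, 5.51 with a mean RPKM of at least 20, COS genes, -1.87 with the same filter, and small heat shock proteins, -0.30 without near-identical copies. The signs of glycerol, glycolysis, anaerobic mannoprotein and thiamine medians depend on the setting. Of 3186 values of single genes 28 moved, all with another pseudocount, and none past 2-fold reversed. In the 500-base window the share of promoters with the Rap1-like letters went from 10.1% to 45.6% for the large subunit, from 7.14% to 32.1% for the small subunit and from 2.88% to 5.61% for all. Depth is unknown, so the counting error of low genes cannot be given.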
